A study of Mus musculus with 6 samples.

Results

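miR-9 and miR-124 are microRNAs (miRNAs) tied to neuronal identity, and both of their arms were followed here. The arms were taken by name (mmu-miR-9-5p, mmu-miR-9-3p, mmu-miR-124-3p and mmu-miR-124-5p, written below without the species prefix), as 4 of the 1978 mature miRNAs listed in the count tables. The counts are of RNA held by a tagged Argonaute protein, AGO2, in mouse cortex, taken at postnatal day 14. Animals carried VGLUT2-Cre and a conditional Spy3-AGO2 allele, in which Cre switches on an AGO2 whose tag couples to SpyCatcher3 on a resin, and the labels name pyramidal neurons as the cell type. The tag marks cells with a history of VGLUT2-Cre activity, the promoter that drives Cre, and no mice without the tag or without Cre were analysed here. Of the 6 libraries of the series, the 2 AGO2-bound miRNA libraries carry the counts and the AGO2-bound target libraries were used as 1 peak list for the series. The input libraries from whole lysate were not analysed here.

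A miRNA is cut from a hairpin RNA whose stem gives a duplex of a 5p arm and a 3p arm. AGO2 keeps one arm of each duplex, and its bases 2 to 8, the seed, pair with target RNA. miR-124-3p is known for repressing non-neuronal genes in neurons, and miR-9-5p for regulating neural progenitors, neuron differentiation and axon growth. The other arm of miR-9, once written miR-9*, is also known to act: with miR-124 it represses a subunit of a chromatin remodelling complex when progenitors become neurons.

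The mature miR-9 arms and their close relatives miR-9b are shown to place the counts on sequence, with the seed in capitals (RefSeq, GRCm38.p6).
miR-9-5p: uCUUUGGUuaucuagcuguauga
miR-9-3p: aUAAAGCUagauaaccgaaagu
miR-9b-3p: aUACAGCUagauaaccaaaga
miR-9b-5p: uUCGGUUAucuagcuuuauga

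The 2 arms of miR-9 have different seeds, so they are different regulators. Sequences were at hand for 1679 of the 1978 listed miRNAs, which held 88.7% of the counts, and among these 0 others shared bases 2 to 8, or bases 2 to 7, with either arm of miR-9. The miR-124 arms were not among the 1679, so shared seeds were not looked up for them. miR-9b is annotated on the opposite strand of the miR-9 hairpins, and miR-9b-3p is the reverse complement of bases 1 to 21 of miR-9-5p. It also resembles miR-9-3p. Counted from 1 at the 5′ end and without gaps, the 2 differ over 21 bases by A4C, G17A, A20G and G21A, with miR-9-3p given first, and bases 5 to 16 are identical. The change A4C lies in the seed.

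miR-9 is made from 3 loci, and the hairpins are shown because the counts cannot tell these loci apart (RefSeq, GRCm38.p6, plus strand; the 5p and then the 3p arm in capitals).
Mir9-1: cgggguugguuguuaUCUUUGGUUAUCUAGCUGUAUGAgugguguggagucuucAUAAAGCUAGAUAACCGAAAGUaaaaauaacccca
Mir9-2: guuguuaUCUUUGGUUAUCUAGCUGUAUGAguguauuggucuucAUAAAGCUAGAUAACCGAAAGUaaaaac
Mir9-3: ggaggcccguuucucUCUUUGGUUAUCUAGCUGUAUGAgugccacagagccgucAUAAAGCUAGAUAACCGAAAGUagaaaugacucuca

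Both arms are the same in all 3 hairpins, and only the loop and the flanks differ. Mir9-1 lies at chr3:88215598-88215686 in the lncRNA gene Gm3764, Mir9-2 at chr13:83738814-83738885 in the lncRNA gene C130071C03Rik and Mir9-3 at chr7:79505264-79505353 in the lncRNA gene Mir9-3hg. miR-124 is also made from 3 loci. Mir124a-1 lies at chr14:64590657-64590741 in Mir124a-1hg, Mir124a-2 at chr3:17795662-17795770 in Mir124-2hg and Mir124a-3 at chr2:180894040-180894107 in no other annotated gene span.

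The 2 miRNA libraries held 66854 and 75658 counts, and 3 counts, the limit that a count of 0 allows, were 0.00449% of replicate 1 and 0.00397% of replicate 2. Nothing in the labels ties the replicates to separate animals, and their spread may be technical. Duplicate reads were left in, so intervals and tests cover read counting error only. As a check for neurons in general, 3 listed neuronal miRNAs other than the arms studied, miR-128-3p, miR-132-3p and miR-138-5p, held 15.3% and 16.0% of the counts. Most of that was miR-128-3p, with a mean of 13.2%. The lists held no group for astrocytes or for pyramidal neurons as such. The 4 oligodendrocyte miRNAs held 0.0703% and 0.0793%, the 4 endothelial and mural miRNAs 0.151% and 0.145%, and the 4 miRNAs of microglia and blood cells 0.0239% and 0.0344%, with the myeloid miR-223-3p at 0 in both libraries.

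Of the 4 arms, 3 were abundant on AGO2 and 1 was almost absent. miR-9-5p had 4424 counts in replicate 1 and 4714 in replicate 2, which is 6.62% (exact 95% interval 6.43 to 6.81) and 6.23% (6.06 to 6.41) of the libraries. miR-124-3p had 3684 and 4258 counts, or 5.51% (5.34 to 5.69) and 5.63% (5.46 to 5.79). Both were among the 4 most abundant miRNAs of each library, miR-9-5p at rank 3 and then 2, miR-124-3p at rank 4 in both.

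miR-9-3p, the less abundant arm of its hairpin, had 607 and 790 counts, or 0.908% (0.837 to 0.983) and 1.04% (0.973 to 1.12) of the libraries. That placed it at rank 26 in replicate 1 and rank 19 in replicate 2. miR-124-5p had 4 counts in replicate 1, or 0.00598% (0.00163 to 0.0153), and 0 in replicate 2. The 4 arms together held 13.0% and 12.9% of the counts, with a mean of 13.0% ± 0.0983 (SD, n = 2).

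**Figure D1:**
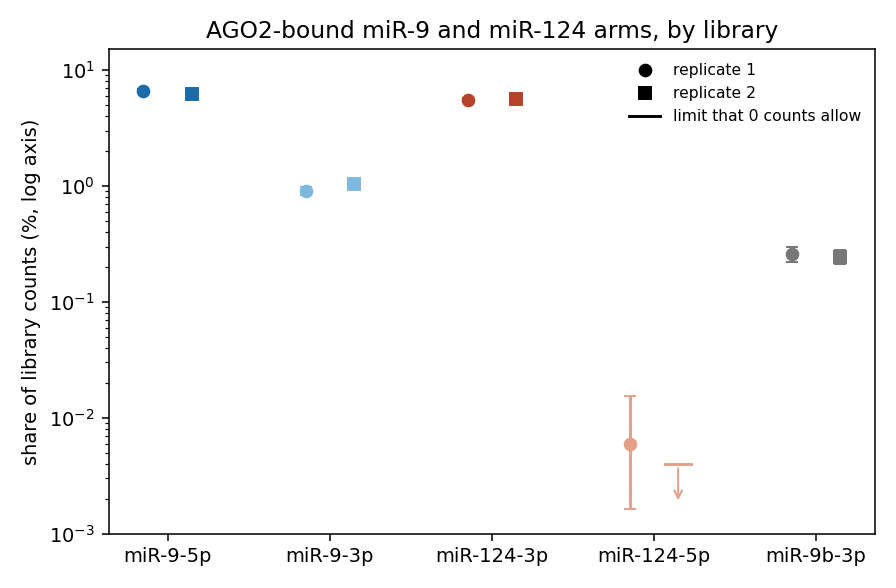
Share of library counts on a log axis for the 4 arms and for miR-9b-3p, with circles for replicate 1, squares for replicate 2 and exact 95% intervals as bars; the line with an arrow is the limit that 0 counts allow. miR-9-5p and miR-124-3p lie between 5.51% and 6.62%, miR-9-3p at 0.908% and 1.04%, and miR-124-5p is seen in replicate 1 only.

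Among neighbours in abundance, miR-9-5p and miR-125b-5p, a miRNA common in brain, could not be ordered. miR-125b-5p averaged 6.43% ± 0.332 and miR-9-5p 6.42% ± 0.273 (SD, n = 2 each), with miR-9-5p counted 0.992 and 1.01 times as often (exact binomial p = 0.726 and 0.813). miR-9-5p was counted 1.20 and 1.11 times as often as miR-124-3p in replicates 1 and 2 (exact binomial p = 2.16e-16 and 1.55e-06, with duplicate reads counted as independent). miR-124-3p in turn was 2.00 and 2.04 times as abundant as the next miRNA, miR-136-5p of the imprinted Dlk1-Dio3 region, and the ranges of the 2 over the libraries did not overlap. These ratios compare counts of different miRNAs, and how well each was ligated and amplified was not tested.

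miR-9-3p stood among miRNAs that are the main arms of their hairpins. It averaged 0.976% ± 0.0963, against 1.03% ± 0.174 for miR-29b-3p and 1.00% ± 0.00327 for miR-487b-3p just above it, and 0.965% ± 0.0298 for miR-16-5p and 0.960% ± 0.0254 for miR-135a-5p just below it (SD, n = 2 each). All 4 of these neighbours overlapped miR-9-3p in their range over the libraries. miR-124-5p, at 0.00299% ± 0.00423 (SD, n = 2), lay among miRNAs of a few counts, such as miR-203-3p with 1 and 4 counts and miR-137-5p with 3 and 1.

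**Figure D2:**
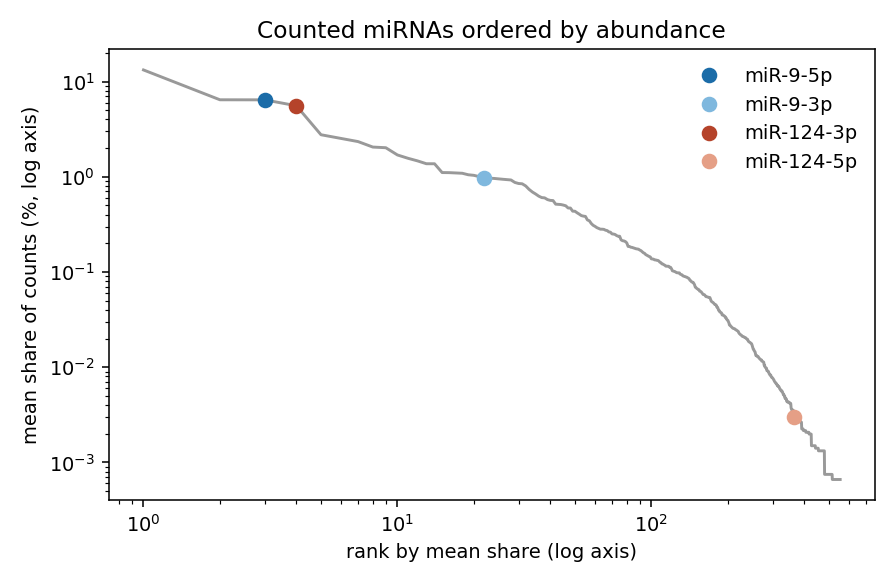
All miRNAs with at least 1 count, ordered by their mean share of counts over the 2 libraries, both axes on a log scale; coloured points are the 4 arms. miR-9-5p is at rank 3, miR-124-3p at rank 4, miR-9-3p at rank 22 and miR-124-5p at rank 366.

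The 2 hairpins were opposite in which arm had more AGO2-bound counts and very different in how one-sided those counts were. How well each arm was ligated and amplified was not tested. For miR-9, the 5p arm made up 87.9% (exact 95% interval 87.0 to 88.8) of the counts of both arms in replicate 1 and 85.6% (84.7 to 86.6) in replicate 2, so 5p was counted 7.29 and 5.97 times as often as 3p. For miR-124, the 5p arm made up 0.108% (0.0296 to 0.277) in replicate 1, where 3p was counted 921 times as often as 5p. In replicate 2 it was 0 of 4258, which allows a share of up to 0.0705% by the floor of 3 counts in that library, and of up to 0.0866% by the upper end of the exact interval. With that floor used for 5p, 3p was at least 1419-fold higher.

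The odds of 5p over 3p in miR-9 were 6713 times those in miR-124 in replicate 1 (exact interval 2600 to 24699). In replicate 2, with 0 counts of miR-124-5p, the exact lower limit of this odds ratio was 6857. Fisher's exact test, two-sided and within each library, gave a p below 1e-300 in both, a comparison of reads and not of animals. Both hairpins were counted in the same 2 libraries, which are too few for a test over libraries.

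Set against other hairpins, miR-9 was more even than most and miR-124 more one-sided than most. Of 773 hairpin names with both arms listed, 148 had at least 50 counts over both arms and libraries, and their more abundant arm took a median of 98.0% of the counts (quartiles 87.9% and 100%). miR-9 took 86.7% with both libraries summed, and 34 of the 148 were more even. In replicate 2 alone 20 of 121 hairpins with enough counts were more even, and in replicate 1 alone 24 of 109. Its neighbours were miR-582 (86.5%) and miR-17 (85.8%) on the more even side and miR-485 (87.5%) and miR-708 (87.6%) on the other.

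miR-124 took 99.95% with both libraries summed, and 38 hairpins with 0 counts of the lesser arm were more one-sided. None of the 148 with a count of the lesser arm was. The nearest were let-7g (99.94%, 1570 counts of 5p and 1 of 3p) and miR-30b (99.93%, 1497 counts of 5p and 1 of 3p). miR-128 was not among the 148. A lesser arm at 0 counts bounds the share less tightly in a hairpin with fewer counts, and miR-124 had 7946. More even than miR-124 were 109 of the 148, 79 of 121 in replicate 2 alone and 72 of 109 in replicate 1 alone.

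**Figure D3:**
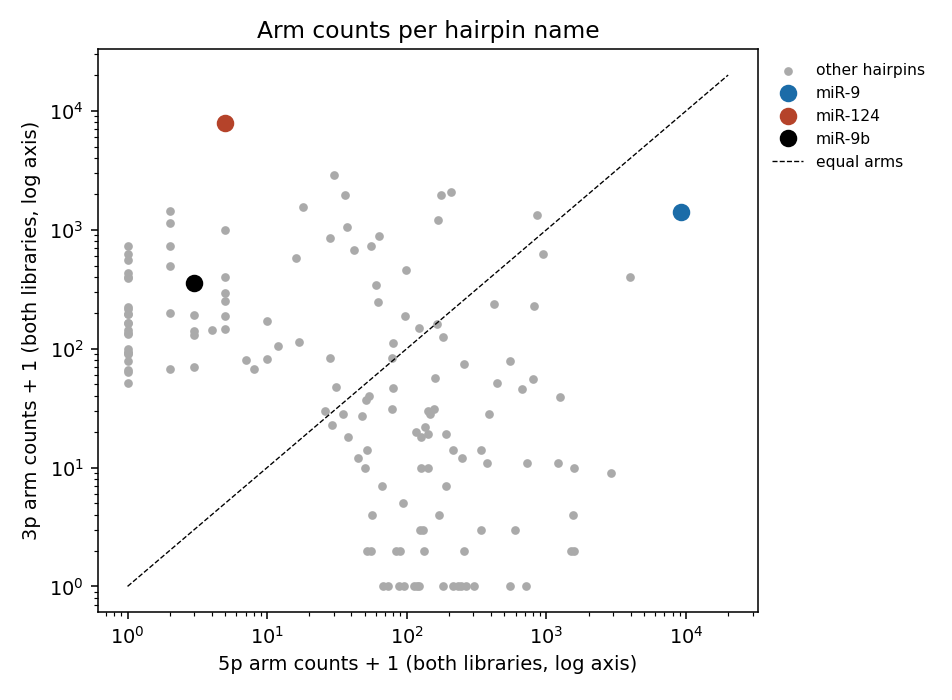
Counts of the 5p arm (x) and of the 3p arm (y) summed over both libraries, 1 added and log axes, for the 148 hairpin names with at least 50 counts; the dashed line marks equal arms. miR-9 lies far to the right with 9138 counts of 5p and 1397 of 3p, and miR-124 at the top left with 4 and 7942.

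Of the 148 hairpins, miR-9 had the most counts over both arms, 10535, and miR-9-3p was the most abundant lesser arm. Its 1397 counts compare with 857 for miR-434-5p, 624 for miR-369-3p, 399 for miR-136-3p and 237 for miR-154-3p, the next in order, all of them from the Dlk1-Dio3 region. Hairpins whose arms carry different locus numbers in their names, such as those of miR-128, miR-125b and several let-7 members, are not paired by name. With these numbers removed and counts of a stem summed, a pairing chosen after the data were seen, miR-9-3p remained first among the lesser arms of 169 hairpins. In that pairing 14 hairpins had at least 2000 counts, and among them miR-434 alone, at 60.6%, was more even than miR-9.

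In the same 14, miR-128 (99.99%), with 2 counts of its lesser arm, was more one-sided than miR-124. So were let-7a, let-7c and let-7f, with 0 counts of the lesser arm. The first base of the arms was also read from the sequences, since AGO proteins are known to favour a 5′ U. In 123 other hairpins with both sequences, 48.8% of the more abundant arms began with U, against 16.3% of the lesser arms. miR-9-5p begins with U and miR-9-3p with A, which began 35.0% of the lesser arms and 30.9% of the more abundant ones. No miR-124 sequence was at hand, so miR-124 was not among the 123. Whether the first base bears on the balance of the arms was not tested.

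The balance of the miR-9 arms differed between the 2 libraries in a test that covers read counting error only. Duplicate reads count as independent in that test, so its p can be too small. The 3p arm made up 14.4% (exact 95% interval 13.4 to 15.3) of miR-9 counts in replicate 2 and 12.1% (11.2 to 13.0) in replicate 1. The log2 odds of 3p were 0.29 higher in replicate 2 (Fisher's exact test, p = 0.000557, adjusted p = 0.0412 over 148 hairpins after Benjamini-Hochberg adjustment). Of the 148 hairpins, 2 passed an adjusted p of 0.05, a background of 1.35%, and 16 had an unadjusted p under 0.05 (10.8%). The other one was miR-376a, named after its values were seen, whose 5p arm had 122 counts in replicate 2 and 54 in replicate 1. An arm balance does not depend on how libraries are scaled. Adding the counts of miR-9b to the miR-9 arm of the same name ended the call (Fisher's exact test, adjusted p = 0.0978), with the log2 odds at 0.23. That sum put miR-9b-3p with miR-9-3p, though miR-9b is annotated on the opposite strand, and whether its counts belong there was not tested. For miR-124 the 4 counts of 5p in replicate 1 and 0 in replicate 2 gave an adjusted p of 0.444.

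**Figure D4:**
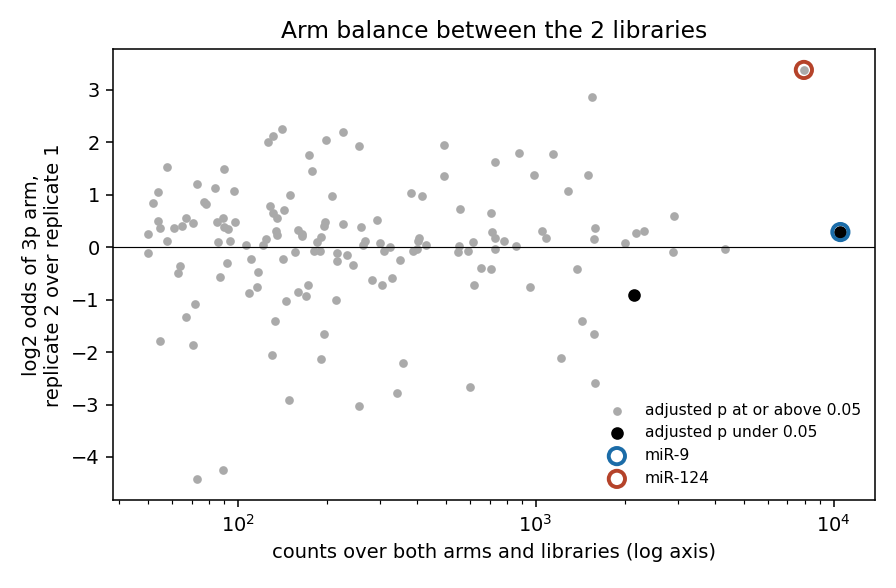
Log2 odds of the 3p arm in replicate 2 over replicate 1 (y, 0.5 added to each count) against the counts of the hairpin (x, log axis), for 148 hairpins; black points passed the adjusted p. miR-9, ringed in blue, lies at 0.29, and miR-124, ringed in red, lies at 3.38 on 4 counts of its 5p arm and did not pass.

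As shares of the whole library, no arm passed at an adjusted p of 0.05. Exact binomial tests given the library totals ran over 310 miRNAs with at least 10 counts summed, of which 4 passed (1.29%) and 46 had an unadjusted p under 0.05 (14.8%). miR-9-5p had a log2 ratio of -0.09 (replicate 2 over 1, adjusted p = 0.0973), miR-9-3p of 0.20 (adjusted p = 0.183) and miR-124-3p of 0.03 (adjusted p = 0.755). Over the 310 miRNAs the log2 ratio had a median of 0.02 and an SD of 0.57. The result for miR-9-5p depended on the scaling, with an adjusted p of 0.00588 with edgeR's TMM factors and 0.0220 with DESeq2 size factors. miR-124-5p had too few counts to be tested.

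miR-9b and miR-124b were read as well, since reads of near-identical sequence can be split between names. miR-9b-3p had 172 counts in replicate 1 and 185 in replicate 2, or 0.251% ± 0.00902 of the libraries (SD, n = 2), while miR-9b-5p had 0 and 2. miR-124b-3p had 0 in both. miR-9-3p was counted 3.53 and 4.27 times as often as miR-9b-3p. miR-9b-3p is the reverse complement of bases 1 to 21 of miR-9-5p and differs from miR-9-3p at 4 of 21 bases. Whether its counts are antisense RNA or reads of either miR-9 arm given to the wrong name was not tested, since reads were not used here.

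The target side was then read at the loci of the 2 miRNAs, to see whether AGO2 peaks lay on their own precursors. None of the 2197 deposited peaks overlapped any of the 6 hairpins. One peak lay in a gene that holds a hairpin: a 96-base peak on the plus strand at chr14:64588541-64588636, in Mir124a-1hg and 2021 bases from Mir124a-1. Of 12731 lncRNA genes, 101 held a peak (0.793%). The nearest peak to a miR-9 hairpin lay 73.7 kb from Mir9-2, and those of Mir9-1 and Mir9-3 lay 530.1 kb and 1329 kb away.

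Peaks were then counted in genes known as targets of each arm, without a test. The lists were chosen with earlier results of these data known, and that of miR-9-5p is short of 1 planned gene. The counts below are therefore a description and no evidence of targeting. Of 14 genes listed for miR-9-5p, 3 held the midpoint of at least 1 peak (21.4%): Map1b, Meis2 and Foxp1. Of 22 listed for miR-124-3p, 0 did, and of 2 listed for miR-9-3p, Rcor1, a corepressor that works with REST, and Actl6a, a subunit of the chromatin remodelling complex of progenitors, 0 did. Over all 21887 nuclear protein-coding genes 970 did, a background of 4.43%. With at least 2 peaks required, 1 of the 14 remained, Map1b, against 1.43% of all such genes. With a peak in the last 10% of the gene span required, Map1b and Meis2 remained, 2 of the 14, against 2.81%. Expression was not measured here and its part in these counts was not tested. Without genome sequence no peak was assigned to a miRNA.

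Map1b, a microtubule-associated protein of growing axons that miR-9 is known to repress, had 7 peaks on chromosome 13, all on the strand of the gene. Of protein-coding genes, 33 had at least 7. One of its peaks (chr13:99421489-99421570) lay 0.0655 kb from the 3′ end of the gene span, 4 lay between 2.62 and 3.24 kb from it, and the other 2 lay 13.0 kb and 58.3 kb from it. The widest, 247 bases, lay at chr13:99423958-99424204.

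Both other genes code for transcription factors and had 1 peak each. In Meis2, a homeobox gene, it lay at chr2:115863917-115863991, 2.69 kb from the 3′ end. In Foxp1, a forkhead gene of cortical neurons, a 22-base peak lay at chr6:99031033-99031054, 105.7 kb from the 3′ end, or 17.7% of the span. Genes of the miR-9-5p list without a peak included Rest, a repressor of neuronal genes, Hes1, a Notch target, Nr2e1, a nuclear receptor of neural stem cells, and Onecut2, a transcription factor. Those of the miR-124-3p list included Ptbp1, a splicing repressor that neurons shut off, Ctdsp1, a phosphatase that works with REST, Sox9, a transcription factor of progenitors and glia, and Vim, a filament protein of non-neuronal cells.

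**Figure D5:**
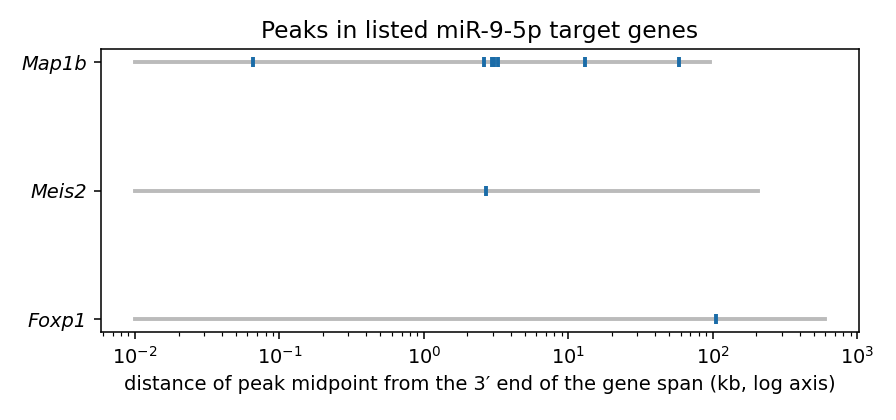
Midpoints of the 9 peaks (blue ticks) in the 3 listed miR-9-5p target genes that held one, by distance from the 3′ end of the gene span in kb on a log axis; grey lines show each span. Map1b has 5 peaks within 3.24 kb of its end, and the peak of Foxp1 lies 105.7 kb from the end.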

How the data were processed

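The miRNA values are counts per mature miRNA as deposited, not normalized by the authors; the name given to them says that duplicates were not removed. Per the submitters' processing notes, the tools included Bowtie2 2.4.2, STAR 2.5.2a, cutadapt 2.10 and UMI-tools and the build was mm10, with no role given. Peaks are 1 deposited list on mm10. Its score, given by the authors, is 0 for every peak. The peak caller is not given in the sources used here. Members and lists were chosen with earlier results of these data known.

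Shares, Clopper-Pearson intervals, binomial and Fisher's exact tests (two-sided) used scipy 1.17.1. Arms were paired by name. Binomial and between-library Fisher tests were checked on simulated independent counts, without duplicate reads or added spread between libraries. That check does not cover either. TMM factors came from edgeR 4.0.16 and size factors from DESeq2 1.42.0. Gene spans, miRNA sequences and gene strands are RefSeq's on GRCm38.p6, the assembly of mm10. All 37 listed target genes matched; 1 further gene of the planned miR-9-5p list is not reported here, so that list is short of 1 gene. Seed sites in peaks were not counted, as no genome sequence was used here. Named are the members, their relatives and nearest neighbours, the 5 most abundant lesser arms, and listed targets with a peak or up to 4 per list without. A row for unassigned reads held 0 counts.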

Additional observations from a re-analysis of the deposited data

How the results depend on the processing

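No paired analysis was possible because the counts come from 1 group of 2 libraries. Without miR-128-3p in the total, the mean share was 7.40% for miR-9-5p, 1.13% for miR-9-3p and 6.42% for miR-124-3p, since the total is smaller. With the counts of miR-9b added to the miR-9 arm of the same name, the 5p arm took 83.9% of miR-9 counts. The difference in 5p share between miR-9 and miR-124 was then 83.9 percentage points. The difference in miR-9 arm balance between libraries no longer passed with this sum (Fisher's exact test, adjusted p = 0.0978, log2 odds 0.23 against 0.29). That p was 0.0315 to 0.0484 with other count minimums and with locus numbers pooled. With 1 library left out, 20 to 24 hairpins were more even than miR-9 and 72 to 79 more even than miR-124, against 34 and 109 with both. Fewer hairpins reached the minimum, 109 and 121 against 148; whether that accounts for the drop was not tested. Of all miRNAs, 11 differed between libraries with TMM, 7 with DESeq2 size factors and 7 with a minimum of 50 counts, against 4. Of the miR-9-5p targets, 1 had at least 2 peaks and 2 had a peak in the last 10% of the span. The counts for miR-124-3p and miR-9-3p were 0 by the main rule already, so these stricter rules could not change them. The share of miR-9-5p differed between libraries with TMM (adjusted p = 0.00588) and with DESeq2 size factors (0.0220). In all, 58 values from alternatives kept their direction and side of the threshold or moved by less than the replicate spread (counts, by at most 1.5 times). Some of these could not move, such as counts at 0 under stricter rules and shares with miRNAs of the same seed, of which 0 were found. Shares under 0.00449% and 0.00397% cannot be told from 0 at this depth, which limits miR-124-5p.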
